A study of Mus musculus with 36 samples.

Results

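Mitochondrial ribosomal proteins are encoded in the nucleus and named Mrpl or Mrps after the large and the small subunit of the mitochondrial ribosome. The genes described here are the protein-coding genes whose mouse symbol is Mrpl or Mrps followed by a number and at most 1 letter a, b or c, with at least 10 counts in each of the 36 RNA-seq libraries. All 78 candidates met the count minimum, out of 51912 gene IDs in the deposited tables, and the lowest count of a member in any library was 251. Of the 78, 51 belong to the large subunit and 26 to the small subunit, while Mrps36 carries the family name but is a subunit of the 2-oxoglutarate dehydrogenase complex in mammals. By origin, 48 have a counterpart in bacterial ribosomes and 30 do not. Muscles came from 3-month-old male C57BL/6 mice that were either wild type (WT) or ∆Ig3-MuSK, a line in which CRISPR-Cas9 removed exons 6 and 7 of Musk on both alleles, so that the muscle receptor kinase MuSK lacks Ig3, the third immunoglobulin domain, which binds BMP ligands. The allele was bred onto the same C57BL/6 background, is present in all cells, and the mice received no treatment. There were 9 libraries each of WT tibialis anterior (TA, a fast muscle), ∆Ig3-MuSK TA, WT soleus (a slow muscle) and ∆Ig3-MuSK soleus, each from whole muscle. Labels give the NEBNext Ultra RNA kit for all soleus libraries and the Ultra II RNA kit for all TA libraries, so muscle and kit cannot be told apart. The comparisons ask whether the members differ between genotypes within a muscle, between the muscles within a genotype, and whether the genotype difference itself differs between the muscles.

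The mitochondrial ribosome translates the few mRNAs that mitochondrial DNA encodes, all of them for subunits of the respiratory chain and ATP synthase. Its ribosomal RNAs are transcribed inside the organelle, whereas its proteins are made in the cytosol and imported, so that both genomes must contribute to each particle. Compared with bacterial ribosomes it has less RNA and more protein, and several subunits are mutated in inherited human disorders of mitochondrial translation. In muscle, slow and oxidative fibers are known for a high mitochondrial content.

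The total count of a library was lowest in WT soleus, at 43492000 to 50051000, and highest in ∆Ig3-MuSK TA, at 56584000 to 78660000. The members took 0.259 ± 0.0214% of all counts in WT TA, 0.235 ± 0.0152% in ∆Ig3-MuSK TA, 0.261 ± 0.00545% in WT soleus and 0.253 ± 0.00763% in ∆Ig3-MuSK soleus (SD, n = 9 each). Slow fiber markers summed to between 82.6 and 157 CPM (counts scaled by library size) in WT TA and between 19487 and 27294 CPM in WT soleus, in the direction of the muscle labels. Musk itself, counted over all exons and not only the deleted ones, was at 4.25 ± 0.947 CPM in WT TA and 3.08 ± 0.391 CPM in ∆Ig3-MuSK TA (exact permutation test, 2-sided, p = 0.00341, 0.058 after adjustment over 17 library measures), and at 15.2 ± 1.82 and 11.3 ± 3.29 CPM in WT and ∆Ig3-MuSK soleus (p = 0.00905, adjusted 0.0483; SD, n = 9 each). In 3 TA libraries the genes with short transcripts stood high against those with long ones: WT TA replicates 3 and 5 and ∆Ig3-MuSK TA replicate 3. ∆Ig3-MuSK soleus replicate 2 stood similarly high within its own muscle, by a measure given below. The members' counts and medians in each comparison that holds the 3 TA libraries are given with and without them. Without the soleus library, counts are given in the soleus comparison and the interaction, and in the ∆Ig3-MuSK muscle comparison only within a range.

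Upstream regions are shown for 4 of the 9 members with the smallest p-values in a genotype comparison, to let the letters that known regulators of mitochondrial genes read be seen at their place. RefSeq start sites of GRCm38.p6 were found for 69 of the 78 genes, in 75 windows of 250 bases before to 50 bases after the start. Capitals mark matches to GGGCGG (SP1), AANATGGC (YY1), CCGGAAG (ETS factors such as GABPA) or the NRF1 motif on either strand, and each sequence runs 5′ to 3′ on the strand of its gene. The windows are chr19:6057706-6058005 (minus strand) for Mrpl49, chr11:58171414-58171713 (plus) for Mrpl22, chr3:94443086-94443385 (plus) for Mrpl9 and chr9:98601630-98601929 (minus) for Mrps22.
Mrpl49: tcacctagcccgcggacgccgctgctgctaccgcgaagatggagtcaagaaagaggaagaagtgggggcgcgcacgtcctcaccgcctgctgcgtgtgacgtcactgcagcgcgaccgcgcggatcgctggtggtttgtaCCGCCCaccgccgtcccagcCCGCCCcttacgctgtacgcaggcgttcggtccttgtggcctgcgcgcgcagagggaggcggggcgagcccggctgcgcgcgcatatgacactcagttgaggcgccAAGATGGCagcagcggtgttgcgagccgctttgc
Mrpl22: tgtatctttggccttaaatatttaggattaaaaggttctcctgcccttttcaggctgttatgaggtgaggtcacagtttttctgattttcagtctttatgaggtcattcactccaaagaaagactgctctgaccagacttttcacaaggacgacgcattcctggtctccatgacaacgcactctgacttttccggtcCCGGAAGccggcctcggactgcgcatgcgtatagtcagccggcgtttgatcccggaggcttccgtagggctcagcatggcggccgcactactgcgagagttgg
Mrpl9: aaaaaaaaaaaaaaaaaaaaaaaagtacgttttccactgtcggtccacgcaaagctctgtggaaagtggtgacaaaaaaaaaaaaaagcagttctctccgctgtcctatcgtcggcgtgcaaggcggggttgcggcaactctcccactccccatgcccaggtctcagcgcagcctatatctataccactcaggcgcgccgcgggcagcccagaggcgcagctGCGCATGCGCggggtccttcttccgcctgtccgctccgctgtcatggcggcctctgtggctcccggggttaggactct
Mrps22: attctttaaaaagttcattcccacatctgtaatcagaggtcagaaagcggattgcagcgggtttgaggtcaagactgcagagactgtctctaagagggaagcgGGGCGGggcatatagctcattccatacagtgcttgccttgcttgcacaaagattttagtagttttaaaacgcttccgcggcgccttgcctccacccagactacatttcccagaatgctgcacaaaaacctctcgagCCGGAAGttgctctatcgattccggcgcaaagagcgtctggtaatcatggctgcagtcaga

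In Mrpl49 the YY1 letters began 17 bases after the start, and the SP1 letters, on the opposite strand, lay 110 and 90 bases before it. The ETS letters lay 53 bases before the start of Mrpl22 and 11 bases before that of Mrps22, whose window also held the SP1 letters 147 bases upstream. The NRF1 letters, which read the same on both strands here, lay 28 bases before the start of Mrpl9. The windows of Mrps31 and Mrps2 held none of these letters. Across the members, 34.7% of the 75 windows held the ETS letters, beside 8.86% of all 32851 RefSeq windows of that length. YY1 letters were in 28.0% of member windows and 6.05% of all, NRF1 letters in 17.3% and 4.6%, and SP1 letters in 52.0% and 35.7%. An E-box (CACGTG) was in 9.33% of member windows and 7.15% of all, and TCAAGGTCA, read by the estrogen-related receptor alpha, was in 0.0% and 0.423%. A match of letters is a description of the sequence and was not tested as a binding site.

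Levels were compared between genes per kb of merged exons, since longer transcripts collect more reads. In WT TA the mean level ranged from 1.87 CPM per kb for Mrpl23 to 90.1 CPM per kb for Mrps21, a ratio of 48.2, with a median of 12.4 CPM per kb. In WT soleus the same range ran from 1.13 CPM per kb for Mrpl23 to 67.8 CPM per kb for Mrpl14, a ratio of 60.2, with a median of 10.5 CPM per kb.

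**Figure D1:**
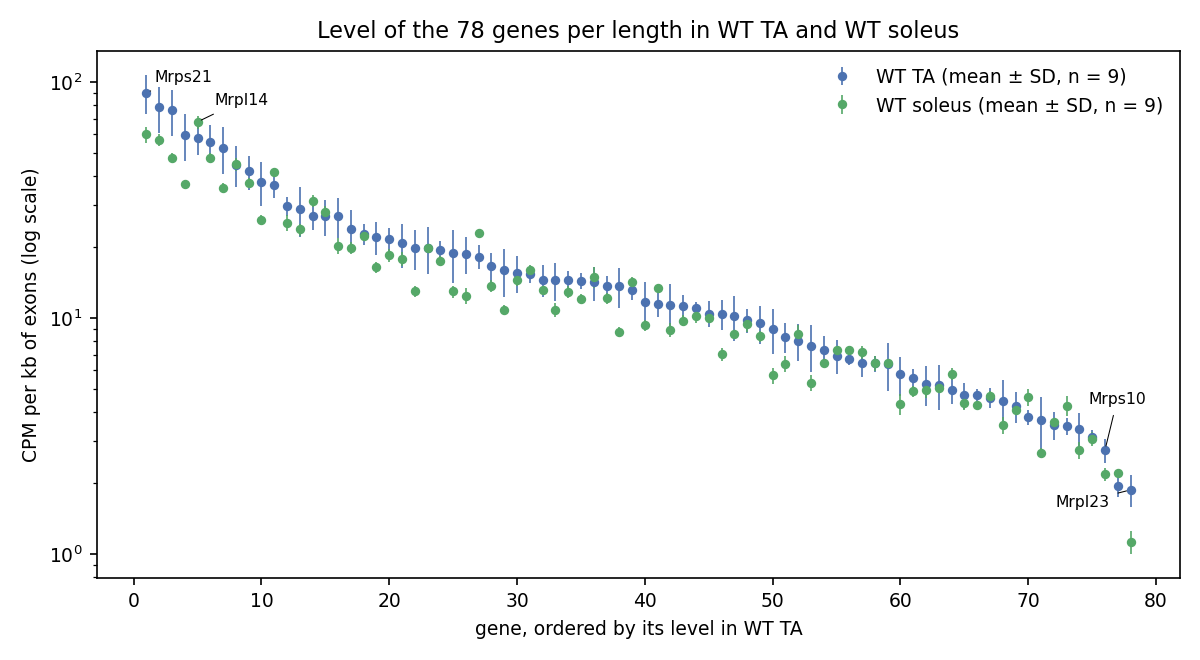
Mean CPM per kb of merged exons (log scale, ± SD over 9 libraries) of the 78 genes in WT TA and WT soleus, with genes ordered by their level in WT TA. Levels fall from 90.1 CPM per kb for Mrps21 to 1.87 for Mrpl23 in WT TA, and the soleus points scatter around the same order.

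The highest levels per kb belonged to genes with 739 to 1532 bp of merged exons, but dividing by length raises short genes by construction. Mrpl34, the shortest member at 607 bp, ranked 9 in WT TA. Mrps21, a small subunit protein, was at 90.1 ± 17.2 CPM per kb in WT TA and 60.0 ± 4.79 in WT soleus. Mrpl12, which forms the flexible stalk of the large subunit where translation factors dock, was at 78.1 ± 17.3 and 56.9 ± 3.56 CPM per kb. Mrpl53, a protein found only in the mitochondrial large subunit, was at 75.8 ± 16.9 CPM per kb in WT TA, and its exons overlap those of a neighbouring gene model on the same strand. In WT TA the standard deviations of these 3 neighbours in the order exceeded the distances between them. Mrpl14, at the interface that faces the small subunit, was at 67.8 ± 4.30 CPM per kb in WT soleus, ranked 1, and at 58.1 ± 8.96 in WT TA, ranked 5. At the other end, Mrpl23, at the mouth of the tunnel through which the new protein leaves, was at 1.87 ± 0.283 CPM per kb in WT TA and 1.13 ± 0.126 in WT soleus. Its processed pseudogene Mrpl23-ps1 held a mean of 2161.7 counts, so that the share of reads from the gene itself is uncertain. Mrps35 at 1.94 ± 0.185 and Mrps10 at 2.76 ± 0.319 CPM per kb were the next lowest in WT TA (SD, n = 9 for all values here). Their merged exons hold 8631 and 8079 bp, and dividing by length lowers long genes by construction. Before division they were at 16.7 and 22.3 CPM in WT TA, where the lowest member was at 9.13 CPM.

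The members' mean level differed between libraries of the same group, most in WT TA. The mean log2 CPM of the 78 genes was 4.90 ± 0.195 in WT TA, 4.72 ± 0.104 in ∆Ig3-MuSK TA, 4.72 ± 0.0568 in WT soleus and 4.77 ± 0.114 in ∆Ig3-MuSK soleus (SD, n = 9 each). In WT TA the values ran from 4.71 to 5.29 with a median of 4.84, and the 2 highest were replicate 5 at 5.29 and replicate 3 at 5.13. Replicate 5 lay above the group's median in all 78 genes and was the highest WT TA library in 64 of them, and replicate 3 was the highest in the other 14. In ∆Ig3-MuSK TA, 8 libraries lay between 4.65 and 4.75, and replicate 3 stood apart at 4.99 and was the highest in 72 genes. In the soleus, WT libraries lay between 4.63 and 4.79 and ∆Ig3-MuSK libraries between 4.61 and 4.94. The value of 4.94 was that of replicate 2, which was the highest ∆Ig3-MuSK soleus library in 49 genes. The median coefficient of variation of a member was 15.7% in WT TA, 9.42% in ∆Ig3-MuSK TA, 5.57% in WT soleus and 9.16% in ∆Ig3-MuSK soleus. Large and small subunit genes moved alike, with means in WT TA of 5.02 ± 0.198 and 4.73 ± 0.189 and in ∆Ig3-MuSK TA of 4.83 ± 0.107 and 4.55 ± 0.0982 on the log2 CPM scale (SD, n = 9).

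**Figure D2:**
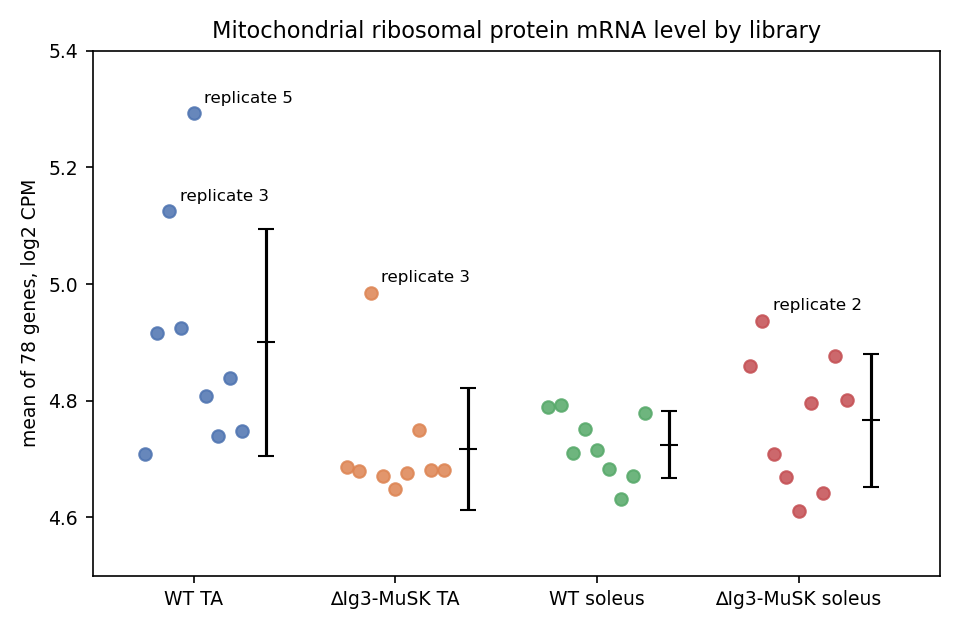
Mean log2 CPM of the 78 genes in each library (points), with the group mean and SD over 9 libraries beside them (bar). WT TA replicates 5 and 3, at 5.29 and 5.13, and ∆Ig3-MuSK TA replicate 3, at 4.99, stand above the rest of their groups.

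In the TA, the mean level of each member was lower in ∆Ig3-MuSK than in WT by a small amount, and 0 of them passed the test. The log2 fold change of ∆Ig3-MuSK over WT was below 0 for all 78 genes, between -0.31 and -0.05, with a median of -0.20, whereas the median over the 20075 genes tested was -0.0032 and 50.7% of them were below 0. A gene was called at an adjusted p under 0.05 (edgeR, adjusted over all genes tested) with at least a 1.2-fold change, and 0 of 78 members were called, with a smallest adjusted p of 0.145. Over all genes this limit called 3, or 0.0149%, all of them higher (0.0% lower). At an unadjusted p under 0.05 there were 60 members lower and 0 higher, beside 12.0% of all genes lower and 12.2% higher. DESeq2 and limma-voom with sample quality weights also called 0 members, beside 0.822% and 0.747% of all genes, each with 61 members lower at an unadjusted p under 0.05, beside 13.0% and 12.0% of all genes. A single fit over the 36 libraries, which takes its spread from the soleus too, called 10 members lower, beside 207 genes or 0.993% called lower in all. Of the large subunit genes 39 of 51 were at an unadjusted p under 0.05, with a median of -0.20, and of the small subunit genes 20 of 26, with a median of -0.18. The counts were 39 of 48 for genes with a bacterial counterpart and 21 of 30 for those without.

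The smallest p-values belonged to Mrpl49, Mrps31 and Mrps6. Mrpl49, a large subunit protein with no bacterial counterpart (chromosome 19, 6053622 to 6057785, minus strand, GRCm38), was at 18.3, 20.9 and 25.3 CPM (lowest, median and highest library) in WT TA and at 17.3, 18.1 and 20.4 CPM in ∆Ig3-MuSK TA. The groups overlapped, although 7 of 9 ∆Ig3-MuSK libraries lay below the lowest WT library. Its log2 fold change was -0.20 ± 0.06 (SE; edgeR, adjusted p = 0.145). Mrps31, a small subunit protein with no bacterial counterpart (chromosome 8, 22411361 to 22429665, plus strand), was at 14.2, 17.6 and 25.0 CPM in WT TA and at 13.1, 13.9 and 16.6 CPM in ∆Ig3-MuSK TA, again with 7 of 9 below the lowest WT library. Its log2 fold change was -0.30 ± 0.09 (SE; edgeR, adjusted p = 0.145). Mrps6, the counterpart of bacterial S6 (chromosome 16, 92058270 to 92112227, plus strand), was at 8.81, 9.18 and 12.5 CPM in WT TA and at 7.29, 8.05 and 9.9999 CPM in ∆Ig3-MuSK TA. Its log2 fold change was -0.25 ± 0.08 (SE; edgeR, adjusted p = 0.145), and its exons overlap those of Slc5a3, so that reads there could belong to either gene. Over 14 other fits the adjusted p ranged from 0.0308 to 0.786 for Mrpl49 and from 0.0285 to 0.812 for Mrps31.

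**Figure D3:**
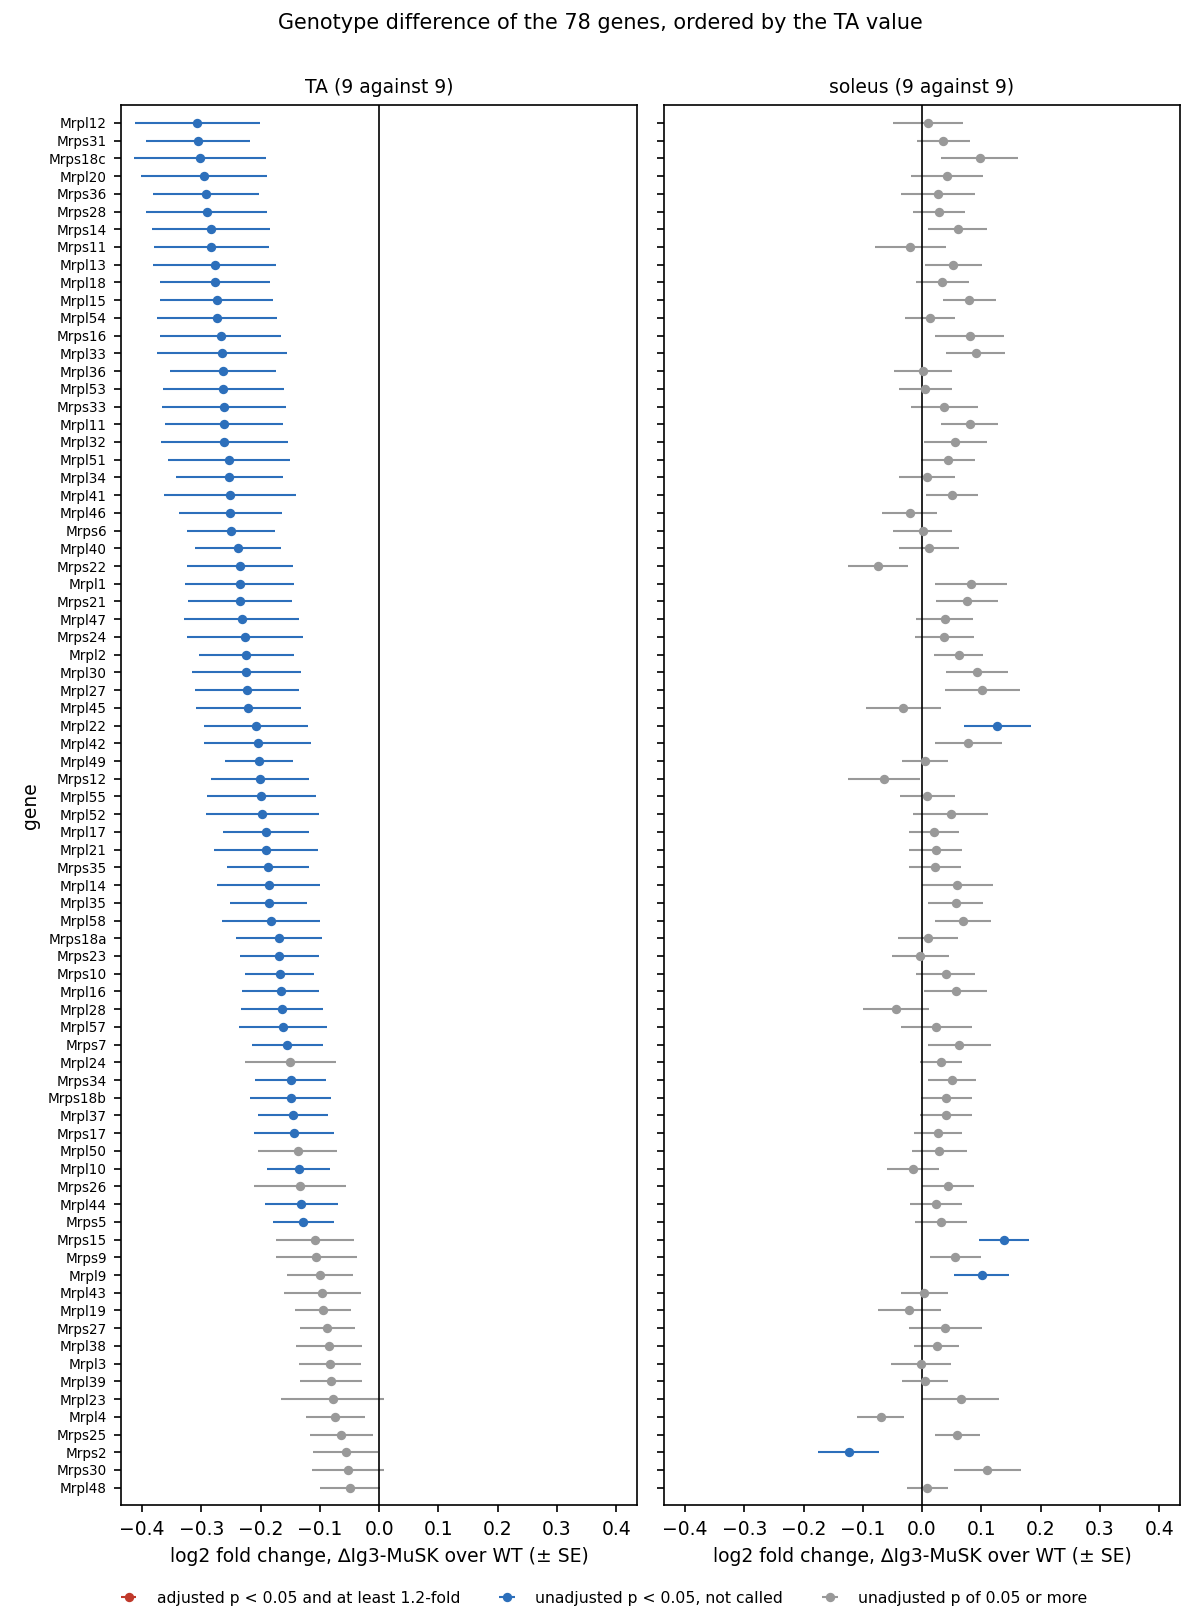
Log2 fold change of ∆Ig3-MuSK over WT (points, ± SE) for each of the 78 genes in the TA (left) and soleus (right), in the order of the TA values. In the TA all points lie left of 0, from -0.31 to -0.05, and in the soleus they lie on both sides, from -0.12 to 0.14, with 0 genes called in either muscle.

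Members with known roles showed the same small differences in the TA, all with adjusted p-values above 0.05. The stalk protein Mrpl12 was at 94.8, 114.2 and 170.5 CPM in WT and 87.6, 90.1 and 126.8 CPM in ∆Ig3-MuSK, a log2 fold change of -0.31 ± 0.11, the farthest from 0 of all members. Mrpl11, at the base of that stalk, had -0.26 ± 0.10. Mrps12, which lies at the decoding centre, had -0.20 ± 0.08. Mrps16, Mrps22 and Mrps34, in which mutations cause human mitochondrial disease, showed -0.27 ± 0.10, -0.24 ± 0.09 and -0.15 ± 0.06, and Mrpl3 and Mrpl44, also disease genes, had -0.08 ± 0.05 and -0.13 ± 0.06. Of its 2064 bp of exons, Mrps34 shares 1309 bp with Mapk8ip3 on the opposite strand and 763 bp with Nme3 on the same strand. Mrpl58, a hydrolase that frees stalled proteins from their tRNA, had -0.18 ± 0.08, and Mrpl41, a large subunit protein, had -0.25 ± 0.11. The 3 relatives of bacterial S18 had -0.17 ± 0.07 for Mrps18a, which sits in the large subunit, -0.15 ± 0.07 for Mrps18b and -0.30 ± 0.11 for Mrps18c. Mrps30, a large subunit protein in spite of its symbol, had -0.05 ± 0.06, with exons that overlap those of a gene on the opposite strand. Mrps36, of the 2-oxoglutarate dehydrogenase complex, had -0.29 ± 0.09, with reads that its pseudogenes may share (all SE; edgeR's quasi-likelihood test).

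The size of the TA difference moved with a few libraries. Without WT TA replicates 3 and 5 the median log2 fold change of the members was -0.09, from -0.19 to 0.02, and 14 were at an unadjusted p under 0.05, all lower, beside 3.79% of all genes lower. Without these and ∆Ig3-MuSK TA replicate 3 the median was -0.13, and 59 were at an unadjusted p under 0.05, all lower, beside 9.16% of all genes. No member was called in either fit, with smallest adjusted p-values of 0.317 and 0.0598 (edgeR). With 1 surrogate variable estimated from all genes as a covariate the median was -0.012 and 1 member was at an unadjusted p under 0.05, beside 6.32% of all genes.

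The same libraries differed in the balance of short and long transcripts. For the other genes, the median log2 deviation of the shortest of 5 equal bins of exonic length minus that of the longest bin was 0.613 in WT TA replicate 5, 0.475 in WT TA replicate 3 and 0.217 in ∆Ig3-MuSK TA replicate 3, and between -0.183 and 0.143 in the other 15 TA libraries. Its mean was 0.116 ± 0.258 in WT TA and -0.102 ± 0.126 in ∆Ig3-MuSK TA (SD, n = 9; exact permutation test, 2-sided, p = 0.0295, 0.251 after adjustment over 17 library measures). In the soleus the same measure was highest in ∆Ig3-MuSK replicate 2, at 0.219. Its soleus means were -0.0242 ± 0.0700 in WT and 0.0306 ± 0.115 in ∆Ig3-MuSK (SD, n = 9; exact permutation test, p = 0.241, adjusted 0.315). Members are shorter than most genes, with a median of 2394 bp of exons against 3608 bp over the 17062 genes with at least 10 counts in every library. In the TA the median log2 fold change of the other genes ran from -0.11 in the shortest bin through -0.07, -0.02 and 0.03 to 0.11 in the longest, whereas that of the members was -0.24, -0.15, -0.22, -0.10 and -0.19 (18, 26, 17, 10 and 7 members). With a length trend fitted within each library as an offset, the members' median was -0.17, and 52 were lower at an unadjusted p under 0.05, beside 11.3% of all genes. The part of the length balance in the TA difference was not tested beyond these values.

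**Figure D4:**
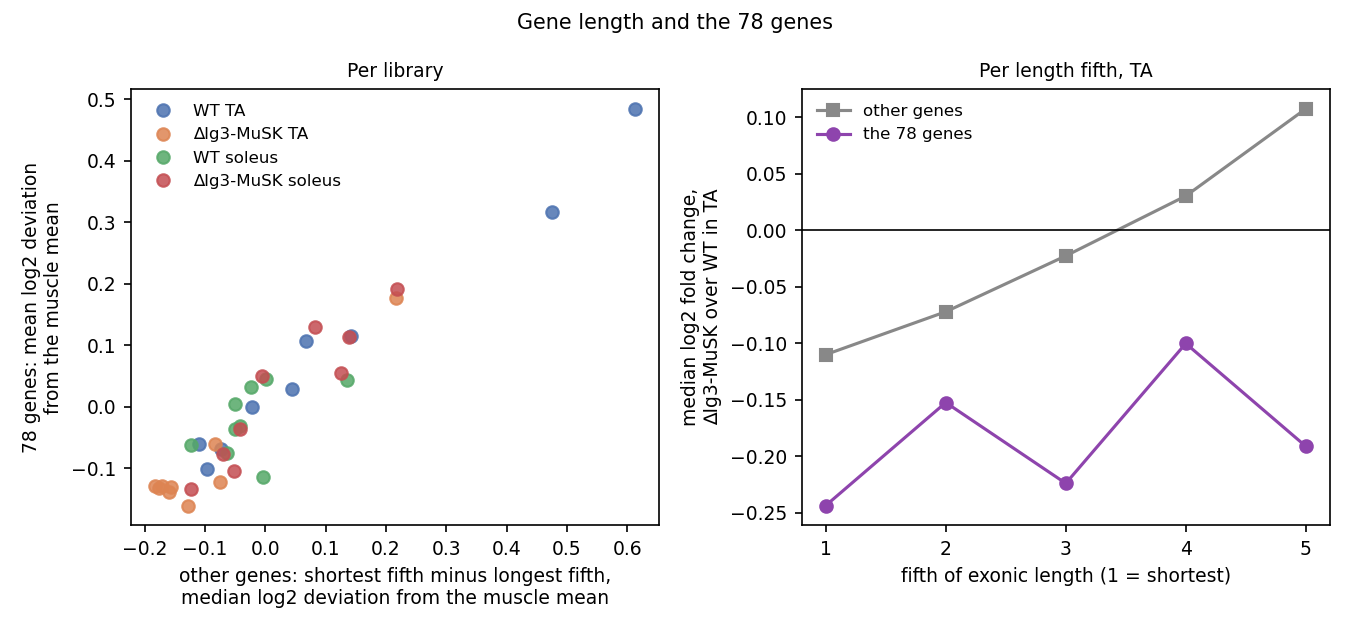
Left, for each of the 36 libraries, the mean log2 deviation of the 78 genes from their mean in that muscle, against the same deviation of the shortest minus the longest of 5 length bins of other genes. WT TA replicates 5 and 3 lie at the upper right, at 0.613 and 0.475 on the horizontal axis. Right, the median log2 fold change of ∆Ig3-MuSK over WT in the TA by bin of exonic length, which goes from -0.11 to 0.11 for other genes and from -0.24 to -0.19 for the 78 genes.

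In the soleus, the members of both genotypes were at nearly the same level. The log2 fold change of ∆Ig3-MuSK over WT lay between -0.12 and 0.14, with a median of 0.04 against -0.0017 over the 19439 genes tested. Of the 78 members, 66 were above 0, and by edgeR's quasi-likelihood test 0 were called, with a smallest adjusted p of 0.0998, beside 185 genes or 0.952% of all. At an unadjusted p under 0.05, 3 members were higher and 1 lower, beside 8.48% and 10.1% of all genes. The count of both directions was 10 without ∆Ig3-MuSK soleus replicate 5, beside 19.1% of all genes, and 2 without WT replicate 8, ∆Ig3-MuSK replicate 1 or ∆Ig3-MuSK replicate 2. DESeq2 and limma-voom called 0 members, beside 2.51% and 3.36% of all genes, each with 4 at an unadjusted p under 0.05, beside 18.7% and 23.5%. The direction of the median turned with the scaling: with library sizes from total counts alone it was -0.05, and 69 members were lower, 12 of them at an unadjusted p under 0.05, beside 20.9% of all genes, and with 1 surrogate variable it was -0.02.

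The 3 higher genes were Mrps15, Mrpl22 and Mrpl9. Mrps15, the counterpart of bacterial S15 in the small subunit (chromosome 4, 126046925 to 126055532, plus strand), was at 27.7, 31.1 and 33.8 CPM in WT soleus and at 31.3, 34.4 and 39.5 CPM in ∆Ig3-MuSK soleus, and 6 of the 9 ∆Ig3-MuSK libraries lay above the highest WT library. Its log2 fold change was 0.14 ± 0.04 (SE; edgeR, adjusted p = 0.0998). Mrpl22, which lines the exit tunnel of the large subunit, was at 7.79, 8.55 and 9.09 CPM in WT and 8.31, 9.30 and 11.02 CPM in ∆Ig3-MuSK, a log2 fold change of 0.13 ± 0.06 (SE; edgeR, adjusted p = 0.233). Mrpl9 was at 44.1, 46.9 and 50.7 CPM in WT and 45.3, 49.9 and 58.9 CPM in ∆Ig3-MuSK, a log2 fold change of 0.10 ± 0.05 (SE; edgeR, adjusted p = 0.246). All 3 pairs of groups overlapped. The 1 lower gene was Mrps2, of the small subunit, at 11.03, 13.4 and 15.2 CPM in WT and 11.1, 12.2 and 14.0 CPM in ∆Ig3-MuSK, a log2 fold change of -0.12 ± 0.05 (SE; edgeR, adjusted p = 0.203). Mrpl4 and Mrps22 followed with -0.07 ± 0.04 and -0.07 ± 0.05 (SE; edgeR, adjusted p = 0.353 and 0.451).

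Other measures differed between the soleus genotypes beside these values. Library totals averaged 46269000 counts in WT and 51313000 in ∆Ig3-MuSK (adjusted p = 0.0483 by exact permutation). Mitochondrially encoded genes took 14.0 ± 1.01% of counts in WT soleus and 15.4 ± 1.01% in ∆Ig3-MuSK soleus (SD, n = 9; exact permutation test, 2-sided, p = 0.0129, adjusted 0.0483). The summed CPM of endothelial markers was 287.3 in WT and 247.6 in ∆Ig3-MuSK, that of fibroblast markers 858.1 and 587.6, and that of tendon markers 236.2 and 147.5 (exact permutation tests, adjusted p = 0.0483, 0.0487 and 0.0483). The part of these measures in the members' values was not tested. In bulk muscle, fewer cells of a type and less RNA per cell cannot be told apart.

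The genotype difference was more positive in the soleus than in the TA for 77 of 78 members, as the interaction in a single fit of all 36 libraries gives it. Its median was 0.24 on the log2 scale, from -0.05 to 0.41, against -0.0023 over the 20841 genes tested. That fit took the libraries as independent, although 8 numbers in the sample descriptions of each genotype occur in both muscles. edgeR's quasi-likelihood test called 0 members, with a smallest adjusted p of 0.102, and 0 genes in all (0.0%), and 60 members were at an unadjusted p under 0.05, all positive, beside 13.7% of all genes. DESeq2 called 1 member and limma-voom 3, beside 306 genes or 1.47% and 958 genes or 4.6% of all. With 1 library left out, edgeR called 19 members without ∆Ig3-MuSK TA replicate 3 and 14 without WT TA replicate 9, all positive, beside 2.83% and 3.47% of all genes called positive, and 0 members without each of the others. Without WT TA replicates 3 and 5 the median was 0.14, with 29 members higher at an unadjusted p under 0.05, beside 6.83% of all genes. Without those 2 and ∆Ig3-MuSK TA replicate 3 it was 0.17, with 0 members called and 55 higher at an unadjusted p under 0.05, beside 10.5%. With total counts the median was 0.091, with 17 in either direction, beside 25.3%. The largest coefficient was that of Mrps18c, 0.41 ± 0.14, and the negative one that of Mrps2, -0.05 ± 0.08 (SE; edgeR, adjusted p = 0.104 and 0.672). These 2 were chosen for their values, and Mrps18c shares 250 bp of its 1076 bp of exons with Gm43511 on the same strand.

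Between the muscles, the members split by gene. In WT, 29 members were called lower in soleus than in TA and 3 higher, of 78, while 27.6% and 30.0% of the 19437 genes tested were called lower and higher. The median log2 fold change of soleus over TA was -0.18 among the members, from -0.73 to 0.33, and 0.015 over all genes. In 17 members every soleus library lay below every TA library, against 14.5% of all genes, and in 0 every soleus library lay above, against 15.1%. The lower calls were 19 of 51 large and 10 of 26 small subunit genes. The library kit changed with the muscle, and the 2 cannot be told apart here or in the interaction. With library sizes from total counts, which moved the median of all genes to 0.20, the members' median was 0.01, with 15 called higher and 15 lower, beside 41.5% and 17.2% of all genes. Without WT TA replicates 3 and 5 the median was -0.095, with 8 members called higher and 21 lower, beside 30.7% and 26.1% of all genes, and without either alone 5 were called higher. By limma-voom 7 members were called higher, beside 30.9% of all genes.

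Mrpl23 differed most in WT, at 6.96, 9.04 and 11.3 CPM in TA and 4.85, 5.35 and 6.87 CPM in soleus, a log2 fold change of -0.73 ± 0.09 (SE; edgeR, adjusted p = 2.7e-07). No soleus library reached the lowest TA library. Its pseudogene Mrpl23-ps1 held a mean of 2161.7 counts, so the share of reads from Mrpl23 itself is uncertain here too. Mrpl57, found only in the mitochondrial large subunit, fell from 26.3, 28.5 and 39.4 CPM to 19.3, 20.5 and 23.5 CPM, -0.58 ± 0.07 (SE; edgeR, adjusted p = 6.8e-07). Mrpl22 was at 10.5, 13.0 and 19.2 CPM in TA and 7.79, 8.55 and 9.09 CPM in soleus, -0.65 ± 0.09 (SE; edgeR, adjusted p = 2.0e-06), again without overlap. In the other direction, Mrpl43, found only in the mitochondrial large subunit, was at 24.2, 27.1 and 33.9 CPM in TA and 33.8, 35.1 and 36.6 CPM in soleus, 0.33 ± 0.06 (SE; edgeR, adjusted p = 4.7e-05), and its exons overlap those of Twnk, the gene of the mitochondrial DNA helicase, on the opposite strand. Mrps2 rose by 0.28 ± 0.06 and Mrps30 by 0.28 ± 0.06 (SE; edgeR, adjusted p = 0.000258 and 0.000335), Mrps30 from 20.9, 23.3 and 26.9 CPM to 26.4, 27.2 and 33.2 CPM. Both lost the call in some of the other fits, and the highest adjusted p of Mrps30 in them, by edgeR with a replicate block and a length offset, was 0.0614.

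**Figure D5:**
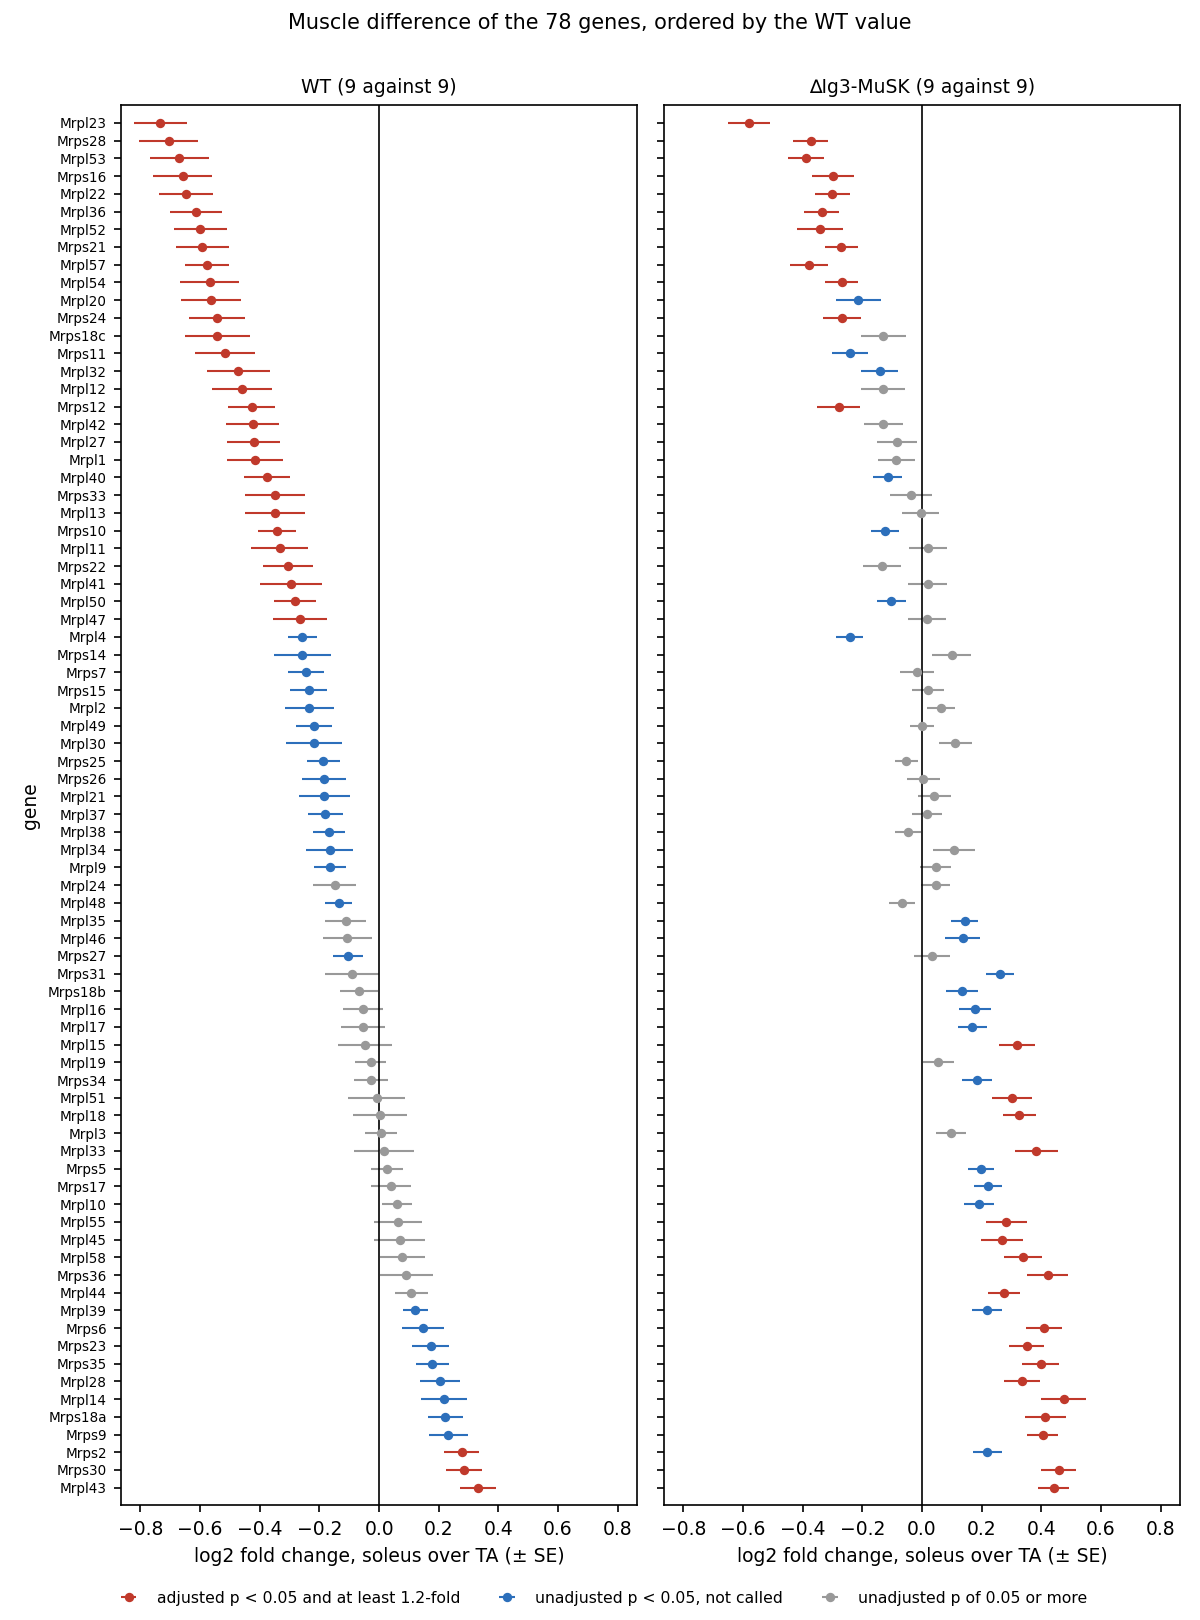
Log2 fold change of soleus over TA (points, ± SE) for each of the 78 genes in WT (left) and ∆Ig3-MuSK (right), in the order of the WT values; color marks the outcome of the test. In WT 29 genes were called lower and 3 higher, and in ∆Ig3-MuSK 12 lower and 18 higher.

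In ∆Ig3-MuSK mice the members were more evenly split. Of 78, 18 were called higher in soleus than in TA and 12 lower, beside 27.9% and 28.0% of the 19910 genes tested, and the median was 0.04, from -0.58 to 0.48, against -0.0083 over all genes. Without ∆Ig3-MuSK TA replicate 3 the median was 0.076, with 19 called higher and 7 lower, beside 28.5% and 27.9% of all genes. Total counts gave 22 higher and 6 lower, beside 30.6% and 24.9%. Non-overlapping groups were seen in 3 members lower in soleus, Mrpl23, Mrpl53 and Mrps28, and in 1 higher, Mrps30, against 15.1% and 15.2% of all genes. Reads of Mrpl23 may be shared with its pseudogene. Mrpl53 shares 695 bp of its 790 bp of exons with Gm42688 on the same strand. Mrpl23 was at 7.17, 8.40 and 10.7 CPM in TA and 4.94, 5.75 and 6.76 CPM in soleus, -0.58 ± 0.07 (SE; edgeR, adjusted p = 2.7e-07). Mrpl53 was at 44.5, 48.6 and 63.0 CPM in TA and 33.4, 38.3 and 43.7 CPM in soleus, -0.39 ± 0.06, and Mrps28, of the small subunit, at 33.8, 38.4 and 44.8 CPM and 26.0, 28.7 and 33.3 CPM, -0.37 ± 0.06 (SE; edgeR, adjusted p = 6.1e-06 and 8.8e-06). Higher in soleus were Mrpl43 by 0.44 ± 0.05, Mrps9 by 0.41 ± 0.05 and Mrps30 by 0.46 ± 0.06 (SE; edgeR, adjusted p = 1.8e-07, 6.2e-07 and 7.1e-07). Mrps9, the counterpart of bacterial S9, was at 22.7, 26.1 and 31.4 CPM in TA and 31.3, 35.7 and 39.0 CPM in soleus, and Mrps30 at 20.5, 21.3 and 26.9 CPM and 27.6, 30.0 and 36.4 CPM.

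Other called members ranged widely in size. Of those called lower in WT soleus, Mrps28, Mrpl53, Mrpl36, Mrpl52 and Mrps21 were between -0.71 and -0.59, and Mrpl47, at -0.26 ± 0.09, was nearest to 0. Of those called higher in ∆Ig3-MuSK soleus, Mrpl14 was farthest from 0 at 0.48 ± 0.08, while Mrps35, Mrps6 and Mrps18a were between 0.40 and 0.41, and Mrpl45, at 0.27 ± 0.07, was nearest to 0 (SE; edgeR). These genes were picked by their place in that order.

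The muscle comparisons of the 2 genotypes use different libraries. The 12 members called lower in soleus in ∆Ig3-MuSK were all called lower in WT too, where they made up 41.4% of the lower calls, and 2 of the 3 called higher in WT, Mrpl43 and Mrps30, were among the 18 called higher in ∆Ig3-MuSK (11.1%). The called members differed in exonic length, with medians of 1667 bp for those lower and 2919 bp for those higher in WT soleus, and 1074.5 bp and 2120 bp in ∆Ig3-MuSK, and the part of length in these calls was not tested. The remaining members of the fixed roles followed the same split: in WT, Mrps16, Mrps18c, Mrpl12, Mrps12, Mrpl11, Mrps22 and Mrpl41 were called lower in soleus, with log2 fold changes from -0.66 to -0.30, whereas Mrps18a was at 0.22 ± 0.06 and Mrps34 at -0.03 ± 0.06 (SE). In ∆Ig3-MuSK, Mrps16 and Mrps12 were called lower, at -0.30 ± 0.07 and -0.28 ± 0.07, and Mrps18a, Mrps36, Mrpl58 and Mrpl44 higher, at 0.41 ± 0.07, 0.42 ± 0.07, 0.34 ± 0.06 and 0.27 ± 0.05 (SE; edgeR's quasi-likelihood test).

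Other genes of mitochondrial translation were taken from lists by function. Their counts stand beside those of all genes tested, with all libraries kept. In the TA genotype comparison 12.0% of all genes were lower and 12.2% higher at an unadjusted p under 0.05. Between the WT muscles 27.6% were called lower and 30.0% higher in soleus. The 5 mitoribosome proteins without an Mrp symbol, such as Dap3 of the small subunit, were all lower in ∆Ig3-MuSK TA, with a median log2 fold change of -0.19 and 0 called, and in WT 3 of 5 were called lower in soleus, Dap3 at -0.36 ± 0.06 (SE). The assembly factors, which fold and modify the ribosomal RNA and join the subunits, had a median of -0.11 in the TA genotype comparison, with 8 of 25 lower at an unadjusted p under 0.05 and 0 called. In WT 10 of them were called lower and 1 higher in soleus, among them the GTPase Mtg1 at -0.80 ± 0.06 and Malsu1, which keeps an unfinished large subunit from joining, at -0.99 ± 0.09 (SE; edgeR, adjusted p = 3.1e-10 and 8.1e-09). The translation factors had a median of -0.06 in the TA genotype comparison, with 2 of 15 lower and 1 higher at an unadjusted p under 0.05, and 4 called in each direction between the WT muscles, Mtif2, the initiation factor, at 0.41 ± 0.05. The mitochondrial aminoacyl-tRNA synthetases, which load tRNAs with amino acids, had a median of -0.04 in the TA, with 2 of 20 lower and 1 higher at an unadjusted p under 0.05. Cars2 was the gene of that list with the smallest p between the WT muscles, at -0.83 ± 0.06 (SE; edgeR, adjusted p = 1.0e-10). Among 15 regulators of mitochondrial transcription and biogenesis, 2 were lower and 1 higher in the TA at an unadjusted p under 0.05, Tfam, which packs mitochondrial DNA, at -0.17 ± 0.07.

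The RNA that the mitoribosome holds and the mRNAs that it reads come from the mitochondrial genome. The 2 ribosomal RNAs, mt-Rnr1 and mt-Rnr2, stood at -0.23 ± 0.14 and -0.18 ± 0.12 (log2 fold change) in the TA genotype comparison and 0.20 ± 0.14 and 0.29 ± 0.10 in the soleus (SE; edgeR, adjusted p from 0.131 to 0.462). The 13 mitochondrially encoded mRNAs had a median of -0.12 in the TA, with 0 at an unadjusted p under 0.05. In the soleus their median was 0.23, with all 13 above 0 and 0 called. There 12 were at an unadjusted p under 0.05, beside 8.48% of all genes higher. Nuclear genes of complex I, which were measured beside them, had a median of -0.23 in the TA, with 33 of 37 lower at an unadjusted p under 0.05. Cytosolic ribosomal proteins had a median of -0.19, with 39 of 83 lower, beside 12.0% of all genes. In WT TA replicates 5 and 3 the mean log2 CPM of complex I was 7.64 and 7.41, beside a group median of 7.09. That of cytosolic ribosomal proteins was 5.37 and 5.29, beside 4.88. In ∆Ig3-MuSK TA replicate 3 the 2 lists were at 7.29 and 5.09, beside group medians of 6.91 and 4.73. Counts without these libraries are not given for the lists. Both lists, like the members, had 0 called in either genotype comparison.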

How the data were processed

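Whole TA and soleus muscles were profiled by bulk RNA-seq in 36 libraries, 9 per group. The authors trimmed reads with Trimmomatic, aligned them to the mouse genome (GRCm38) with GSNAP and assigned them to genes with HTSeq, and the authors deposited raw counts, 1 table per muscle. The library kit does not keep the strand, so reads in exons shared by 2 genes cannot be told apart. How HTSeq treated them and the annotation release are not given in the sources used here.

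Groups came from the labels. Genes passing filterByExpr (minimum count 10, minimum total 15) were fitted for each pair of groups with TMM scaling and edgeR 4.0.16 quasi-likelihood tests in R 4.3.3, and the interaction was fitted over the 36 libraries. A gene was called at an adjusted p (Benjamini-Hochberg, over all genes tested) under 0.05 with at least a 1.2-fold change. DESeq2 1.42.0, limma 3.58.1 (voom with quality weights), total-count scaling, a length offset, sva 3.50.0, a replicate block and leaving out libraries were tried as alternatives. CPM values are edgeR's scaled counts with TMM-adjusted library sizes, and levels between genes were divided by merged exon length. Library measures were compared by exact permutation tests over all 48620 assignments, 2-sided. The labels do not say that same-numbered libraries share an animal, and nothing in them ties libraries to separate litters, so p-values measure the spread between these libraries.

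Members and lists were chosen with earlier results of these data known. Genes named are the 3 with the smallest p in each direction of each 2-group comparison, the 3 highest and lowest per length in WT, 15 members with a known role, up to 2 genes of each other list per comparison, and Musk. A few further members were named after their values were seen, as the ends of an order of fold changes or as groups that did not overlap, and the 4 upstream regions were picked among the first of these for holding motif letters. Promoter sequences came from RefSeq tables of GRCm38.p6.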

Additional observations from a re-analysis of the deposited data

Results flagged for a closer look

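Of 152 groups of 9 libraries tested for a single library far from the rest by Dixon's gap ratio, 24 had one, where chance gives about 1 in 20. In 17 of the 24 the library was ∆Ig3-MuSK TA replicate 3, the highest of its group in each. Its members' mean was 4.99 on the log2 CPM scale and its shift of short against long transcripts 0.217. In CPM it stood at 127 for Mrpl12, 40.9 for Mrpl4, 28.5 for Mrpl41, 31.4 for Mrpl43, 63.0 for Mrpl53, 32.9 for Mrpl57, 24.6 for Mrpl58, 28.1 for Mrps16, 48.7 for Mrps18a, 21.2 for Mrps18c, 69.0 for Mrps21, 16.6 for Mrps31, 19.0 for Mrps35 and 10.7 for Mrps36, and at 4.01 for Musk. WT TA replicate 5 stood apart at 19.2 CPM for Mrpl22, 50.8 CPM for Mrpl3, 25.0 CPM for Mrps31 and 36.1 CPM for Mrps9. In WT soleus, replicate 7 stood apart at 18.3 CPM for Mrpl41, and replicate 1 at 11.03 CPM for Mrps2 and with a transcript-length shift of 0.135. The genes are not independent, since a library that is high in most members counts once for each. The ratio looks for 1 library, so that 2 high together can escape it. WT TA replicates 5 and 3, with members' means of 5.29 and 5.13, were not flagged by that mean. The number of flags therefore does not rank the libraries.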

How the results depend on the processing

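In the TA genotype comparison, the fit over all 36 libraries called 10 members. A surrogate variable left 1 at an unadjusted p under 0.05 with a median log2 fold change of -0.012, and turned Mrpl58 to 0.011, Mrpl41 to 0.039, Mrps30 to 0.047 and Mrps18c to 0.00026. Without WT TA replicates 3 and 5, chosen after seeing the data, 14 were at an unadjusted p under 0.05 and Mrps30 was at 0.0023. Total counts gave 12 members at an unadjusted p under 0.05 in the soleus, a median of 0.012 between WT muscles, and 17 with a median of 0.091 for the interaction, which had 29 without the 2 WT TA libraries. DESeq2 called 1 member and limma-voom 3 in the interaction. The causes were not tested.

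With 1 library left out, members called numbered 0 in both genotype comparisons, beside 0.0149% to 0.0447% of all genes in TA and 0.112% to 3.08% in soleus. They numbered 27 to 35 in WT (56.7% to 58.6% of all genes) and 26 to 30 in ∆Ig3-MuSK (55.2% to 56.4%) between muscles, and 0 to 19 in the interaction (0.0% to 6.21%). Members at an unadjusted p under 0.05 numbered 43 to 70 in TA, 2 to 10 in soleus, 51 to 57 and 44 to 52 between muscles, and 44 to 67 in the interaction, beside 16.2% to 30.6%, 15.4% to 23.0%, 67.7% to 70.7%, 69.1% to 71.0% and 19.6% to 29.7% of all genes. The soleus count was 2 without WT replicate 8, ∆Ig3-MuSK replicate 1 or ∆Ig3-MuSK replicate 2, and 10 without ∆Ig3-MuSK replicate 5. Medians ran from -0.24 to -0.14, 0.015 to 0.052, -0.20 to -0.12, 0.018 to 0.076 and 0.19 to 0.28 in the same order. Mrps30 lost its WT call without WT soleus replicate 2, and Mrps2 without WT soleus replicate 9 or WT TA replicate 1.

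A replicate block by title number left 0 members called in TA, with 58 at an unadjusted p under 0.05, and 0 in soleus, with 3. Same-numbered libraries correlated above 0.1 in 2 of 9 TA pairs and 3 of 9 soleus pairs. The highest value in the TA was 0.563, for replicate 3 of WT and of ∆Ig3-MuSK, both high in short transcripts. In the soleus it was 0.429, for replicate 7. Whether these libraries share more than a number was not tested. Between muscles, a block by the number in the sample descriptions called 34 members in WT and 29 in ∆Ig3-MuSK, with 35 and 28 in the same 8 pairs without the block, and 3 and 7 of 8 pairs correlated above 0.1. For the fits with a block and those of the 8 pairs no share over all genes is given, so their counts do not place the members among all genes. The lowest member count in a library was 251, so that no member was near the count minimum.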
